A study of Mus musculus with 6 samples.

Results

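The Gadd45 genes are Gadd45g, Gadd45a and Gadd45b, a family of small stress-inducible genes, and their messenger RNA was measured here in whole pancreas of mice without Rkip-1. Rkip-1, the Raf kinase inhibitor encoded by the gene now listed as Pebp1, restrains signalling from Raf to MEK and ERK. Members were the Affymetrix probe sets whose platform annotation names exactly 1 gene, that gene being in the family, which gave 5 of 34958 such probe sets. They were 1 probe set of Gadd45g, 1 of Gadd45a and 3 of Gadd45b. The family was chosen by the measured KO and WT values of Gadd45g, already known to be higher in the knockout on these arrays, so that difference is given as a description and supports nothing by itself.

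Rkip-1 knockout mice, written KO, were set against wild-type mice, written WT. Both came from one colony on a C57BL/6 background and were 8 weeks old. There were 3 arrays of KO and 3 of WT, each of total RNA from whole pancreas, called biological replicates in the labels without stating how many mice gave each. The labels name no promoter, Cre line or deleted exon, and they give no sex or batch. Pebp1 averaged 6.03 ± 0.41 in KO and 9.88 ± 0.12 in WT (log2, SD, n = 3 each). Acinar and islet markers were bright, with the elastase Cela3b at 14.54 to 14.57 and the insulin gene Ins2 at 12.53 to 12.70 over the 6 arrays. Array medians ran from 2.97 to 3.02 and correlations between arrays from 0.989 to 0.993. In RNA from a whole organ, fewer cells of one type and less RNA per cell cannot be told apart.

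The Gadd45 proteins have no enzyme activity of their own and act by binding partners. They bind and open the kinase MAP3K4 (MTK1), which leads to the stress kinases p38 and JNK. They also bind the replication clamp PCNA, the CDK inhibitor p21 and the mitotic kinase CDK1, and they have been linked to DNA repair and to removal of DNA methylation. Gadd45a is a classic target of p53, Gadd45b (first named MyD118) responds to TGF-beta and NF-kappaB, and Gadd45g (first named CR6) responds to cytokines.

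The 3 genes lie on different chromosomes, and the 200 bases before each transcription start are shown as a description. Of the 3 only Gadd45g passed an adjusted p under 0.05 by limma, the value that chose it. Whether its difference is unlike those of its paralogues was not tested. All 3 members matched the RefSeq table by symbol, and the sequences are RefSeq's for GRCm38.p6, written on the strand of the gene, with capitals for any match to 8 motifs searched on both strands.
Gadd45g: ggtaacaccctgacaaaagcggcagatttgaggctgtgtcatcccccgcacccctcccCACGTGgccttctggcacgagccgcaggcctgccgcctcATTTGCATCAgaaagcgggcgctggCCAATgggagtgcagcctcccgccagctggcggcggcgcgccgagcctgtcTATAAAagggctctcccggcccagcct
Gadd45a: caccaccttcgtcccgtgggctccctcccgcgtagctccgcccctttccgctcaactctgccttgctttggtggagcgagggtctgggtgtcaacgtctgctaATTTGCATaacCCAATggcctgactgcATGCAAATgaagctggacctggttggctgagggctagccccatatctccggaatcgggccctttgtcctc
Gadd45b: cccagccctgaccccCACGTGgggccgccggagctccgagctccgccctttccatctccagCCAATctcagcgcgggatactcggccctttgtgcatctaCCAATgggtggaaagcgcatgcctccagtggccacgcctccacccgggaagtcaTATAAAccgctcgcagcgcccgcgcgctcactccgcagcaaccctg
They lie at chr13:51846475-51846674 on the plus strand for Gadd45g, chr6:67037408-67037607 on the minus strand for Gadd45a and chr10:80929891-80930090 on the plus strand for Gadd45b.

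The motifs were chosen with these sequences in view, and a match describes letters, not a bound site. The octamer ATTTGCAT, the sequence read by Oct factors, was matched once in Gadd45g and at 2 places in Gadd45a, and it is in 1.38% of all 32851 promoter windows of this length. Gadd45b had no match to it in this window. The Gadd45g octamer overlapped the only match to the C/EBP-ATF element, TGATGNAAN, which 2.86% of windows hold. The CCAAT box, CCAAT, was in all 3 genes and in 29.3% of windows. The TATA box, TATAAA, was matched 27 to 22 bases before the start in Gadd45g and 46 to 41 bases before it in Gadd45b, with none in Gadd45a, against 9.96% of windows. The E-box CACGTG was in Gadd45g and Gadd45b and in 5.26% of windows. No window of the family matched the STAT element TTCNNNGAA (5.49% of windows), the AP-1 element TGACTCA (3.66%) or the cAMP response element TGACGTCA (1.47%). By base composition, the windows of Gadd45g and Gadd45b both held 66.5% G and C and that of Gadd45a 59.5%, against a median of 53 over all windows.

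Gadd45g, the cytokine-responsive member, was higher in KO pancreas on every array. Its probe set 1453851_a_at measured 6.98, 7.50 and 6.77 in KO replicates 1, 2 and 3, and 5.72, 5.46 and 5.85 in WT replicates 1, 2 and 3 (log2 RMA values). The lowest KO array stood above the highest WT array, and KO replicate 2 was the highest of the 6. The group levels were 7.08 ± 0.37 in KO and 5.67 ± 0.20 in WT (SD, n = 3 each). The difference was 1.41 on the log2 scale with a standard error of 0.18, a 2.66-fold higher level with a 95% interval of 2.01 to 3.50. Both groups lay above the arrays' upper quartile, which was 4.53 to 4.56. By size of increase Gadd45g ranked 14 among 18193 genes taken at their brightest probe set. The value that chose it was its adjusted p of 0.0248 by limma over all 45037 probe sets tested, in a comparison where 0.0733% of probe sets were called as higher in KO.

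**Figure D1:**
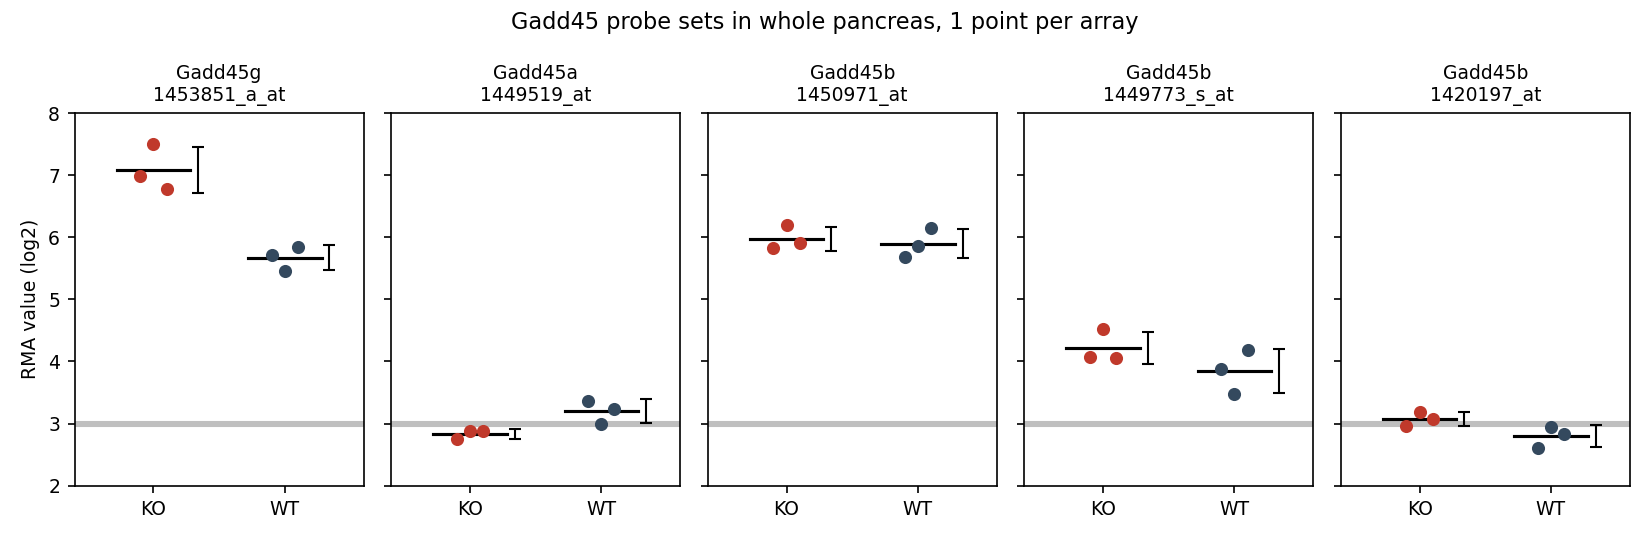
Log2 RMA values of the 5 Gadd45 probe sets, with KO arrays (red) left of WT arrays (dark) in each panel, group means as horizontal lines, SD (n = 3) as side bars, and the range of the 6 array medians, 2.97 to 3.02, as a grey band. Gadd45g is the probe set whose groups stand furthest apart, while Gadd45a and Gadd45b 1420197_at sit at the band.

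With any single array left out, the Gadd45g difference lay between 1.20 and 1.57 on the log2 scale. Its sign could not turn there, since all KO arrays stood above all WT arrays. The Gadd45g call was lost in some of these fits. By limma its adjusted p was 0.0776 when KO replicate 1 was left out. It was 0.115 when WT replicate 1 was left out and 0.174 when WT replicate 2 was. Arrays also differed in Xist, the RNA that silences one X chromosome in female cells: it was 9.09 or higher in replicates 2 and 3 of KO and in WT replicate 3, and 4.43 or lower in the other arrays. Among the high-Xist arrays the Gadd45g difference was 1.29 (2 KO against 1 WT), and among the low-Xist arrays 1.395 (1 KO against 2 WT). With the Xist level as a covariate it was 1.34, with an adjusted p of 0.101.

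Gadd45a, the p53-responsive member, was lower in KO on average and was read at the level of the array medians. Its single probe set, 1449519_at, measured 2.74, 2.88 and 2.87 in KO replicates 1 to 3 and 3.37, 3.00 and 3.24 in WT replicates 1 to 3. All KO arrays were below all WT arrays, an arrangement found in 6.51% of probe sets. The means were 2.83 ± 0.08 in KO and 3.20 ± 0.19 in WT, and so differed by -0.37 with a 95% interval of -0.62 to -0.12. It did not pass the threshold, with an adjusted p of 0.389 by limma. Because these values straddle the array medians and no detection call was available, whether the probe set was above background is not known. If it was, the difference may be too small.

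Gadd45b, the member that responds to TGF-beta and NF-kappaB, was read by 3 probe sets that differed in brightness. The brightest, 1450971_at, measured 5.82, 6.20 and 5.90 in KO and 5.68, 5.85 and 6.16 in WT. These groups overlapped, with WT replicate 3 above both KO replicate 1 and KO replicate 3. The difference was 0.076 with a 95% interval of -0.24 to 0.39, and the adjusted p was 0.918. Its sign turned when KO replicate 2 was left out, at -0.034, and when WT replicate 1 was, at -0.031. The arrays with high Xist gave -0.11 and those with low Xist 0.054.

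The other Gadd45b probe sets gave larger differences at lower brightness. Probe set 1449773_s_at, whose suffix marks probes shared by several transcripts, measured 4.07, 4.51 and 4.06 in KO and 3.87, 3.47 and 4.18 in WT. The groups overlapped, and the difference of 0.37 had an interval of -0.04 to 0.78 (adjusted p 0.616). Probe set 1420197_at measured 2.96, 3.19 and 3.07 in KO and 2.60, 2.94 and 2.84 in WT, at the array medians. Its KO arrays were all above its WT arrays, as in 6.97% of probe sets, with a difference of 0.28 (0.02 to 0.53) that had an adjusted p of 0.536. All 3 probe sets were higher in KO on average and 0 passed. Over the 4 probe sets of Gadd45a and Gadd45b, 0 passed by limma, where 0.0977% of all probe sets did. At an unadjusted p under 0.05 there were 2 of the 4, against 8.68% of all probe sets.

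**Figure D2:**
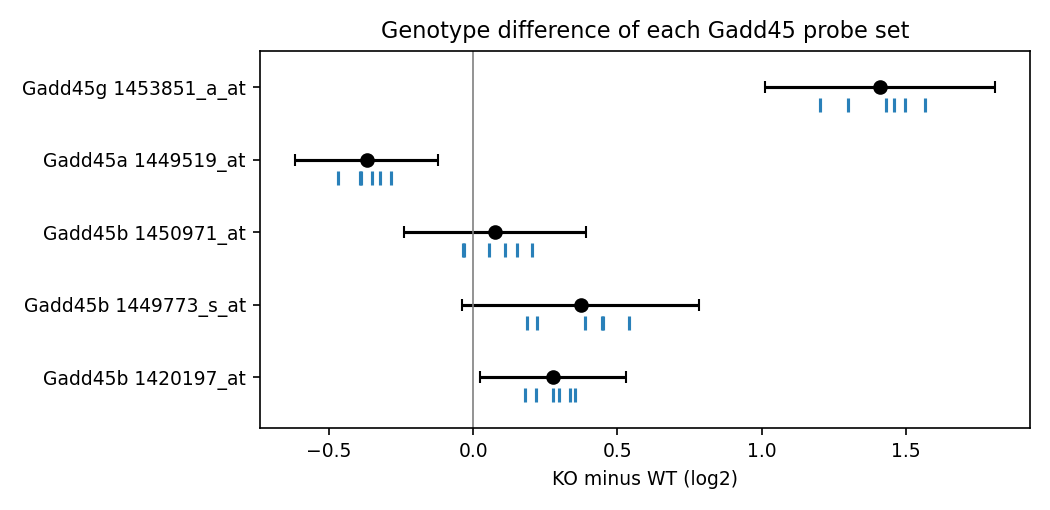
KO minus WT differences (log2) of the 5 Gadd45 probe sets, with limma's 95% intervals as black bars and the 6 estimates with 1 array left out as blue ticks. The Gadd45g estimates lie between 1.20 and 1.57, those of Gadd45a below 0, and those of Gadd45b 1450971_at on both sides of 0.

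Genes known from the same growth arrest and DNA damage screens, or named after them, did not pass the threshold in either direction with all 6 arrays. At their brightest probe sets all 5 measured members of the list of other GADD and DDIT genes were lower on average, as 50.2% of all genes were, with a median difference of -0.11, against -0.00056 over all genes. Ddit3 (GADD153 or CHOP), a transcription factor of the integrated stress response, measured 5.08, 5.52 and 5.27 in KO and 6.48, 6.53 and 5.60 in WT. Ddit4 (REDD1), an inhibitor of mTORC1 signalling, measured 5.76, 6.42 and 6.67 in KO and 8.67, 8.03 and 6.90 in WT. In these 2 genes all KO arrays lay below all WT arrays, as in 7.56% of genes, and the WT replicate 3 value was the lowest of its group. The differences were -0.91 for Ddit3 and -1.58 for Ddit4, with adjusted p of 0.287 and 0.276 by limma.

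Without WT replicate 3 both genes passed by limma, Ddit3 at -1.22 (adjusted p 0.0217) and Ddit4 at -2.07 (adjusted p 0.0473). WT replicate 3 was the only WT array with high Xist, so that fit set low-Xist WT arrays against KO arrays of both levels. Among the high-Xist arrays Ddit4 measured 6.42 and 6.67 in KO and 6.90 in WT. Ddit3 measured 5.52 and 5.27 in KO and 5.60 in WT there. The part of the Xist level in these differences was not tested. A second, dim probe set of Ddit3 differed by 0.09. Ppp1r15a (GADD34), which directs a phosphatase to eIF2alpha, differed by -0.11. Ddit4l, a relative of Ddit4, differed by -0.11 at its brightest probe set and by 0.07 and 0.22 at its others. The Ddit4l values lay near the array medians, where they cannot be told from background without detection calls. Gadd45gip1, which encodes a protein that binds GADD45 gamma and serves the mitochondrial ribosome, differed by -0.07.

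The cell cycle partners of the Gadd45 proteins were lower in KO on average in all 3 measured cases, as 50.2% of all genes were, with a median of -0.47. Cdkn1a, which encodes p21, measured 6.71, 6.20 and 6.37 in KO and 7.75, 7.38 and 6.81 in WT. Its 2 probe sets differed by -0.89 and -0.82, and the brighter had an adjusted p of 0.276. Pcna measured 8.00, 7.87 and 7.87 in KO and 8.52, 8.45 and 8.17 in WT, so that the genotypes differed by -0.47 (adjusted p 0.261). Both genes had all KO arrays below all WT arrays, an order shown by 7.56% of genes. Cdk1 overlapped between groups and differed by -0.31 (adjusted p 0.565). By limma 0 of the 3 passed and all 3 had an unadjusted p under 0.05, where 10.1% of all genes did and 5.58% were lower as well.

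**Figure D3:**
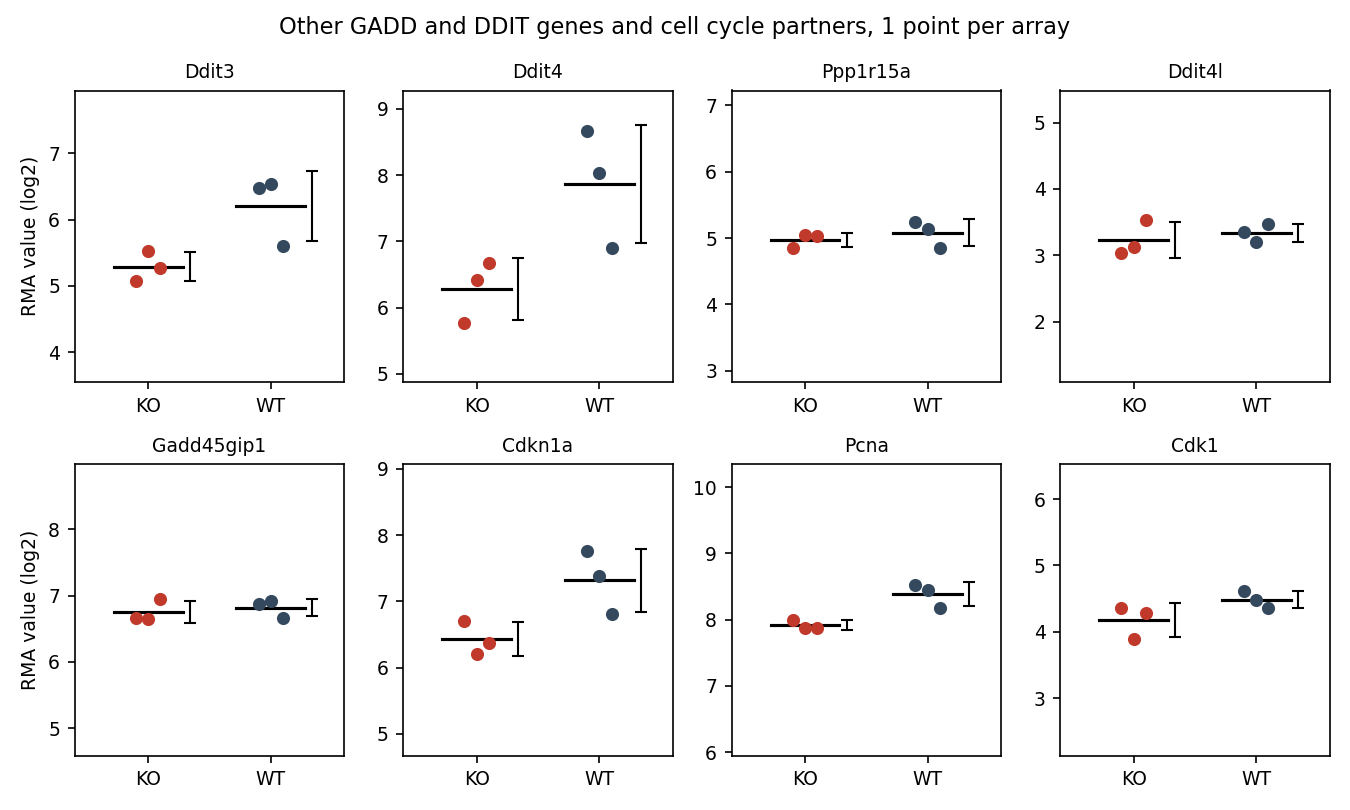
Log2 RMA values of the other GADD and DDIT genes and of 3 cell cycle partners at the brightest probe set, KO (red) left of WT (dark), with means as lines and SD (n = 3) as side bars. Every panel spans the same log2 range. Ddit3, Ddit4, Cdkn1a and Pcna have all KO arrays below all WT arrays.

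Among p53 targets, the group to which Gadd45a belongs, 16 of 22 measured genes were lower and 6 higher on average, where 50.2% of all genes were lower. The median difference was -0.17. By limma 0 passed and 6 had an unadjusted p under 0.05, all of them lower, a direction and level reached by 5.58% of all genes. Zmat3, an RNA-binding protein induced by p53, measured 6.23, 5.80 and 6.24 in KO and 6.74, 6.70 and 6.55 in WT, with a difference of -0.57 and an adjusted p of 0.243. Sesn2, a stress-induced inhibitor of mTORC1 signalling, differed by -0.35 at its brightest probe set and by -0.34 at another (adjusted p 0.357 and 0.389). Trp53 itself was not measured by a probe set with 1 gene symbol. Cdkn1a stands in this list as well as in the previous one.

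Of the kinases that Gadd45 proteins act through, 4 of 12 measured were higher and 8 lower, where 50.2% of all genes were lower. The median was -0.05, and 0 of the 12 passed the threshold by limma. At an unadjusted p under 0.05 there were 2 higher and 2 lower, against 4.55% and 5.58% of all genes. Map2k6, a kinase that phosphorylates p38, measured 4.01, 3.72 and 3.94 in KO and 4.28, 4.10 and 4.78 in WT, and so differed by -0.50 (adjusted p 0.426). Mapk13 (p38 delta) differed by 0.29 (adjusted p 0.488) and Mapk12 (p38 gamma) by -0.29 (adjusted p 0.502), and the Mapk12 values lay near the array medians. Map3k4, the direct partner, which was singled out after its value was seen, measured 5.95, 6.15 and 6.05 in KO and 5.82, 5.82 and 5.89 in WT. Its KO arrays were all above its WT arrays, as in 6.87% of genes, with a difference of 0.21 and an adjusted p of 0.564.

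The DNA repair and demethylation partners were split evenly, 4 higher and 4 lower of 8 measured, where 50.2% of all genes were lower. By limma 0 of the 8 passed the threshold. At their brightest probe sets 0 had an unadjusted p under 0.05, a level that 10.1% of all genes reached. Taf12, a subunit of general transcription factor TFIID, differed by 0.16, the methylcytosine dioxygenase Tet1 by -0.18 and its relative Tet2 by 0.16. The other 3 probe sets of Tet1 differed by -0.20, -0.37 and -0.20, and that at -0.37, the only one of them with an unadjusted p under 0.05 (0.00226), had an adjusted p of 0.276 and lay near or below the array medians.

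Transcription factors described upstream of Gadd45 genes differed in both directions, 7 of 16 higher and 9 lower on average, where 50.2% of all genes were lower. The median was -0.04, and 0 of the 16 passed the threshold by limma. At an unadjusted p under 0.05 there were 3 higher and 4 lower, against 4.55% and 5.58% of all genes. Stat3, which carries signals of the IL-6 family, measured 7.52, 6.77 and 6.98 in KO and 6.23, 6.13 and 6.39 in WT. All KO arrays lay above all WT arrays, as in 6.87% of genes, and the difference was 0.84 with an adjusted p of 0.203. A second Stat3 probe set differed by 0.83 (adjusted p 0.06), and the dimmer 2 of its 4 by 0.12 and 0.04. Myc, described as a repressor of Gadd45a, measured 5.96, 6.24 and 6.25 in KO and 6.63, 6.55 and 6.75 in WT, and so differed by -0.50 (adjusted p 0.227). Smad3, a mediator of TGF-beta signals, differed by -0.38 (adjusted p 0.25), and its dimmer probe sets by -0.18 and 0.13. Egr1, an immediate early factor, differed by -1.10 (adjusted p 0.296).

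**Figure D4:**
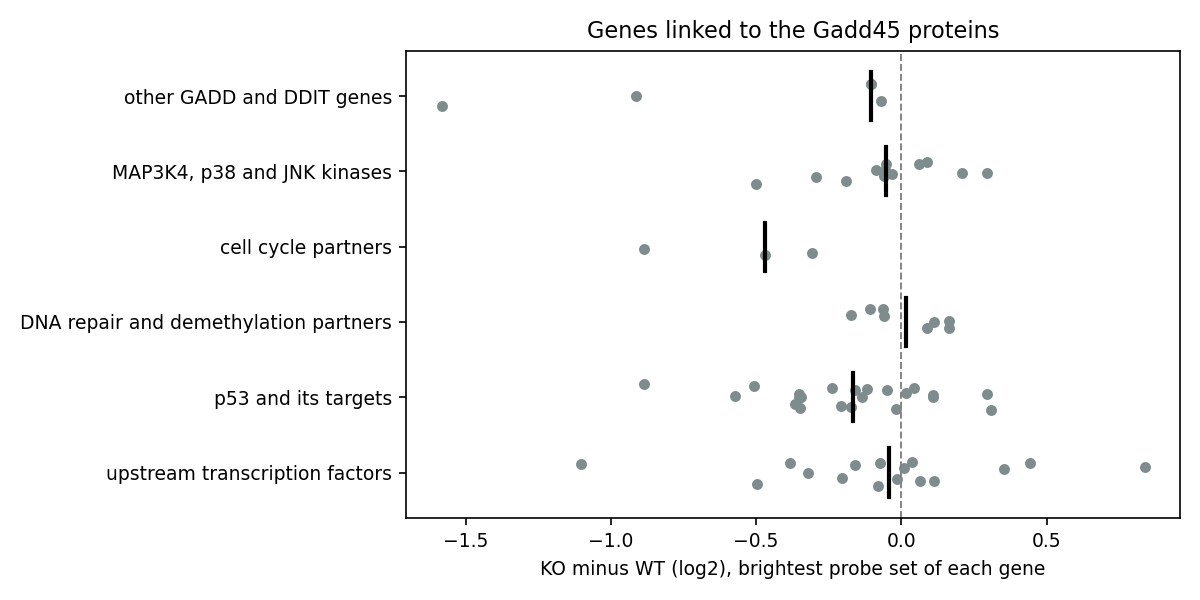
KO minus WT differences (log2) of the measured genes of 6 lists linked to the Gadd45 proteins, 1 point per gene at its brightest probe set, with list medians as black bars and the median of all genes as a dashed line. Ddit4 at -1.58 and Stat3 at 0.84 mark the ends of the range, and no gene shown passed the threshold.

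Over the 6 lists, 65 of 73 distinct genes were measured, 0 passed the threshold by limma, and 21 had an unadjusted p under 0.05, 5 higher and 16 lower in KO. The shares among all genes were 0.132% for the threshold and 10.1% for an unadjusted p under 0.05. The Gadd45g increase stood beside lower average levels of Ddit3, Ddit4 and Cdkn1a at their brightest probe sets, genes named here from the 16 lower ones. None of them passed with all 6 arrays. In each, WT replicate 3, the only WT array with high Xist, was the lowest WT array, and the part of the Xist level was not tested. That the Gadd45g difference is unlike those of its paralogues or of these genes was not tested, since its own value chose it.

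The genes whose pattern over the 6 arrays was most like that of Gadd45g were Nfasc, Upk1b, Upp1, Serpina10 and Dipk1a. They were the 5 of highest Pearson correlation among 287 genes above the median brightness that varied at least 0.5 times as much. The correlations ran from 0.961 for Dipk1a to 0.98 for Nfasc, and Spearman's from 0.829 to 1, over 6 arrays that fall into 2 genotypes, so that any gene with a clear genotype difference of the same sign scores high. Nfasc, which encodes the adhesion protein neurofascin, measured 5.78, 5.85 and 5.47 in KO and 4.31, 4.22 and 4.64 in WT, and followed the rank order of Gadd45g exactly. Upp1, the uridine phosphorylase that opens pyrimidine nucleoside breakdown, measured 4.66, 5.10 and 4.74 in KO and 4.03, 3.54 and 3.90 in WT. Its difference of 1.01 did not pass, with an adjusted p of 0.06. Upk1b, a uroplakin of epithelia, differed by 0.99, and the coagulation inhibitor Serpina10 by 2.03.

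**Figure D5:**
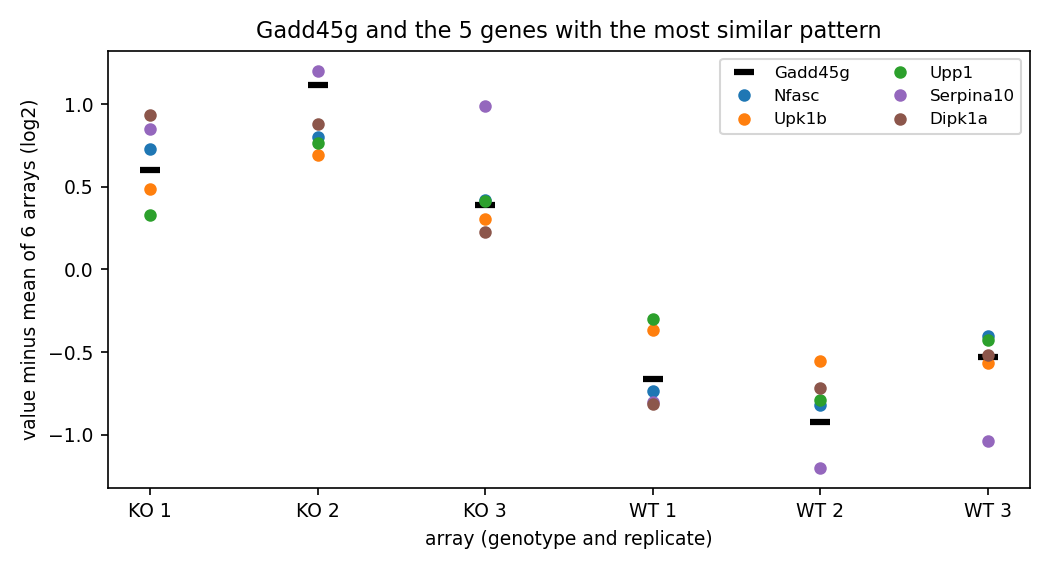
Log2 values of Gadd45g (black bars) and of the 5 genes most like it (coloured points), each minus its own mean of the 6 arrays, with KO arrays left of WT arrays. All 6 genes are above their mean in every KO array and below it in every WT array.

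Over the marker lists of 9 cell types, 0 genes passed the threshold, where 0.132% of all genes did. The sums of 3 lists did not overlap between genotypes, all lower in KO. Among single genes, 7.56% had all KO arrays below all WT arrays and 6.87% had all above. No such share was computed for sums, which rest mostly on their brightest genes. All 6 markers of stellate cells and fibroblasts were lower in KO on average, as 50.2% of all genes were. In 4 of them all KO arrays lay below all WT arrays, as in 7.56% of genes. Their sum was 11.49 to 12.00 in KO and 12.06 to 12.42 in WT (log2 of the sum), and Col3a1, the brightest, weighed most in it. The liver list summed to 9.97 to 10.55 in KO and 10.95 to 11.10 in WT, nearly all of it Ttr, a thyroid hormone carrier that islet alpha cells also make. The acinar sum was 16.70 to 16.71 in KO and 16.73 in WT, at the compressed top of the scale. The part of these cell types in the Gadd45g difference was not tested. Markers of T and B lymphocytes, cells in which Gadd45g and Gadd45b are induced by activation, had 5 of 6 members higher on average, as 9067 of 18193 genes were. Their summed levels, 5.58 to 5.92 in KO and 5.61 to 5.72 in WT, overlapped. Cd3e, Cd3d, Cd79a and Cd79b lay near the array medians, where values cannot be told from background without detection calls. The macrophage and monocyte sums were 7.90 to 8.88 in KO and 8.58 to 8.87 in WT. Albumin (Alb), which defines liver, lay at 3.95 to 4.44 in KO and 3.74 to 4.51 in WT.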

How the data were processed

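The authors deposited log2 values for each probe set on every array. The submitters' processing notes name RMA and affy, whose versions and settings were not given in the sources used here. RMA gives every array nearly the same distribution (array medians of 2.97 to 3.02 here), which hides shifts common to most genes. Of 45101 probe sets, 64 Affymetrix controls were left out. Symbols came from the platform annotation, 34958 probe sets having 1, 932 several and 9211 none, and 34754 were updated through RefSeq (GRCm38.p6). A gene outside the family was read at its brightest single-symbol probe set, which gave 18193 genes.

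KO minus WT was tested with lmFit and eBayes of limma 3.58.1 (R 4.3.3), without covariates, over 45037 probe sets, with Benjamini-Hochberg adjustment and a threshold of 0.05. Intervals (95%) rest on limma's moderated errors, at 9.53 degrees of freedom. The script was tested on simulated data. P-values set the genotype difference against the spread between these arrays, moderated over all probe sets. The members, lists and alternatives were chosen with earlier results of these data known. Named genes were the members, the 5 genes most like each, the GADD, DDIT and cell cycle lists in full, and the 3 of smallest p in each other list; Egr1, Map3k4 and the markers were added for description. Alternatives are given with the limits. Figures were drawn with matplotlib 3.10.9.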

Additional observations from a re-analysis of the deposited data

How the results depend on the processing

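Under the 15 alternatives the Gadd45g difference ran from 1.20 to 1.57 on the log2 scale, which is also its range with single arrays left out. Its adjusted p by limma ran from 0.0078 to 0.174. Leaving out an array could not turn its sign, since all KO arrays stood above all WT arrays. Alternatives that change only the error, the probe sets fitted or the threshold left the difference at 1.41. Gadd45g did not pass in 3 of the 6 fits with 1 array left out, with the Xist covariate, at 1.34, nor with the replicate block, at 1.41 (adjusted p 0.0564). Same-numbered KO and WT arrays had deviations correlated at 0.188, -0.031 and -0.082, and differently numbered ones at -0.157 to 0.185. These few values cannot decide whether equal numbers mark a pairing. The block gave 33 probe sets past the threshold against 44. Gadd45a stayed between -0.47 and -0.28 and never passed. Gadd45b at its brightest probe set turned to -0.037 with the Xist covariate and ran from -0.034 to 0.20 with single arrays left out, against 0.24 as the mean of its probe sets; it and its other probe sets never passed, and 1420197_at gave no value once dim probe sets were removed. The number of probe sets past the threshold was 22 with the Xist covariate, 76 at an adjusted p under 0.1, and 16 to 41 with single arrays left out. From the 6 lists, 1 gene passed with the replicate block (Egr1, adjusted p 0.0207) and 0 to 2 with single arrays left out. The cause of each lost call was not tested. Without detection calls, the Gadd45a and dim Gadd45b values cannot be told from background.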

Other observations

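The genes most like Gadd45a over the 6 arrays, among 8418 searched by the same rule, were Nap1l3, 1110038F14Rik, Icam5, Tmem165 and Hspbp1, with Pearson correlations of 0.975 to 0.993. Nap1l3, a nucleosome assembly protein relative, measured 3.09, 3.18 and 3.13 in KO and 3.67, 3.28 and 3.53 in WT, so that like Gadd45a it was highest in WT replicate 1 and close to the array medians. Those most like the brightest Gadd45b probe set, among 9739 searched, were Trnp1, Slc13a5, Glb1l2, Gm31690 and Lyl1, at 0.971 to 0.986. Slc13a5, a citrate carrier, averaged 4.66 ± 0.16 in KO and 4.55 ± 0.18 in WT (SD, n = 3 each). These lists have no gene in common with each other or with that of Gadd45g. The searches covered different sets of genes, and Gadd45a and Gadd45g differed in opposite directions, so no gene could be close to both. The highest of so many correlations over 6 arrays are high by selection, so the lists are a description only.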
